A study of Bos taurus with 6 samples.

Results

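The genes of the Mediator complex were examined in bovine blastocysts. They were taken as every row of the expression table whose symbol is MED followed by a number, with or without a final L, together with CDK8, CDK19 and CCNC, which gave 33 of 36075 listed genes. Melatonin (MT)-treated blastocysts came from oocytes matured in vitro for 22 h in a medium with 1e-07 mol/L MT, and control blastocysts from oocytes matured without MT. Both groups were otherwise produced alike, from slaughterhouse ovaries by in vitro fertilization and culture, so the MT-treated embryos had met added MT only as oocytes. Each group had 3 libraries, and each library was made from a pool of 3 blastocysts. As described in the methods, the replicates of a group came from separate in vitro production runs. Values are TPM, a relative transcript abundance that accounts for gene length and library size, so levels of different genes can be set side by side, but the table holds no sequencing depth, which was not analysed here.

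Mediator is a large assembly that carries signals from transcription factors bound at enhancers to RNA polymerase II at promoters. Its head and middle modules contact the polymerase and the general transcription factors, its tail module receives most activators, and MED14 runs through the complex as the backbone that holds these modules together. A separable kinase module of CDK8 or CDK19, cyclin C, MED12 or MED12L and MED13 or MED13L docks onto the middle module and blocks the contact with the polymerase. The complex is required for nearly all transcription by RNA polymerase II and is needed in early mouse development.

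Of the 33 genes, 19 had a TPM above 0 in every control library and 32 in every MT-treated library. MED16, a tail subunit, was listed at 0 in all 6 libraries. Another 13 genes were listed at 0 in each control library and above 0 in each MT-treated library. Of the 30 Mediator genes tested below, 12 were at 0 in control (40%, against 33.8% of all tested genes). No Mediator gene showed the opposite pattern, which 3.01% of all tested genes did. A value of 0 in this table may mean that the transcript was absent or that it was not captured or counted. GTF2H3, a subunit of the general transcription factor TFIIH, was also listed at 0 in all 6 libraries. In pooled embryos, a lower value may come from fewer cells of a type or from less of the transcript per cell. As TPM is relative, it may also come from a larger share of other transcripts. These cannot be told apart.

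The groups stood far apart across the whole table. The control libraries had 8854 to 8953 genes above 0 and the MT-treated libraries 14372 to 14408. All 3 libraries of a group shared this gap, so a difference in capture or processing between the groups cannot be told apart from MT treatment. This limit holds for every comparison of the groups given here, with or without values listed at 0 in control. Across the 11953 tested genes, Pearson's r of log2(TPM + 1) between libraries was 0.991 to 0.999 within groups and 0.544 to 0.546 between groups, with genes and not replicates as points. Among blastocyst markers, POU5F1 lay between 188 and 194 TPM in all libraries and KRT8, a keratin of the trophectoderm, between 6756 and 8828 TPM. NANOG and CDX2, markers of the inner cell mass and of the trophectoderm, were listed at 0 in all of the control libraries, with 8.23 to 8.93 TPM and 15.03 to 17.2 TPM in MT-treated libraries. Of 9 tested inner cell mass markers 4 were higher with MT and 3 lower (44.4% and 33.3%, against 61.6% and 34.1% of all tested genes), or 6 and 3 after centring (all genes 70.4% and 25.4%). DPPA3 (mean 196 TPM in control and 108 TPM with MT), KLF17 (44.6 and 5.53 TPM) and SALL4 (56.8 and 26.6 TPM) were the lower ones, and KLF4 (18.1 and 83.8 TPM) was among the higher. The summed TPM of all 10 listed markers of the inner cell mass was 515 to 523 in control and 457 to 459 in MT-treated libraries, that of 14 trophectoderm markers 12502 to 12873 and 11514 to 11889, and that of 9 hypoblast markers 204 to 208 and 527 to 531. KRT8, at 8541 to 8828 TPM in control and 6756 to 7010 TPM in MT-treated libraries, carried most of the trophectoderm sum, while 9 of the 13 tested markers of that list were higher with MT and 4 lower (69.2% and 30.8%, against 61.6% and 34.1% of all tested genes), 10 and 2 after centring (all genes 70.4% and 25.4%) and 8 and 4 after quantile normalization (46.4% and 44.4%). FN1, at 204 to 207 and 457 to 463 TPM, carried most of the hypoblast sum. Markers above 0 in all libraries of a group numbered 6 in control and 9 in MT-treated blastocysts for the inner cell mass, 11 and 13 for the trophectoderm and 2 and 7 for the hypoblast. For 13 cumulus and granulosa markers, 3 of them above 0 in every library of both groups, the sums were 278 to 286 and 292 to 300.3 TPM. HSD3B1 (105 to 140 TPM over all libraries), PTGS2 (128 to 177 TPM), which is also in the trophectoderm list, and FSHR (15.03 to 19.2 TPM) carried these sums, and CYP19A1, FOXL2 and HAS2 were at 0 or at most at 0.01 TPM. For 14 oocyte transcripts, of which OOEP carried nearly all, the sums were 45.6 to 49.3 and 21.8 to 24.2 TPM, and GDF9 and ZP3 were at 0 throughout. The part that these marker differences have in the Mediator values was not tested.

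A gene was tested with limma on log2(TPM + 1), with the standard error (SE) of its log2 fold change, if 3 or more libraries had 1 TPM or more, as for 30 of the 33 Mediator genes. MED12, MED16 and MED25 did not. At a Benjamini-Hochberg adjusted p-value under 0.05, 28 of the 30 differed between the groups, against 95.7% of all tested genes. Of the 30 genes, 18 were higher in MT-treated blastocysts, where 61.6% of all tested genes were higher, and 10 were lower, where 34.1% of all tested genes were lower. The shares for Mediator were 60% and 33.3%, near those of all tested genes. The libraries of both groups did not overlap for 29 of the 30 genes, against 96.1% of all tested genes. On the log2(TPM + 1) scale, 2-fold or more was reached by 16 of the higher genes, against 51% of all tested genes, and by 4 of the lower genes, against 19.6%. MED10 and MED29 were tested and not called. With 3 libraries against 3, no exact permutation p-value (two-sided) for 1 gene can fall below 0.1.

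These counts depended on the filter and on the scaling. Of the 30 tested genes, 14 reached 1 TPM in MT-treated libraries only and so had to differ if they were tested at all. Over all tested genes, 5082 reached it in MT-treated libraries only and 661 in control only. The shares given for all tested genes include these. Among the other 16 Mediator genes, which reached 1 TPM in 1 or more libraries of both groups, 4 were higher and 10 lower (25% and 62.5%). These shares were 36.8% and 54.9% for the 6210 such genes in the table. Library medians of log2(TPM + 1), over genes that had 1 TPM or more in each library, differed by -0.48 (MT-treated mean minus control mean). The median log2 fold change of single genes was -0.19 over the 6925 tested genes above 0 in all libraries. Once libraries were centred on their medians, 22 Mediator genes were higher and 7 lower, with 70.4% and 25.4% of all tested genes. Among the 16 these were 8 and 7 (50% and 43.8%), against 53.6% and 38.4% of the 6210. After quantile normalization, 15 were higher and 12 lower, with 46.4% and 44.4% of all tested genes.

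**Figure D1:**
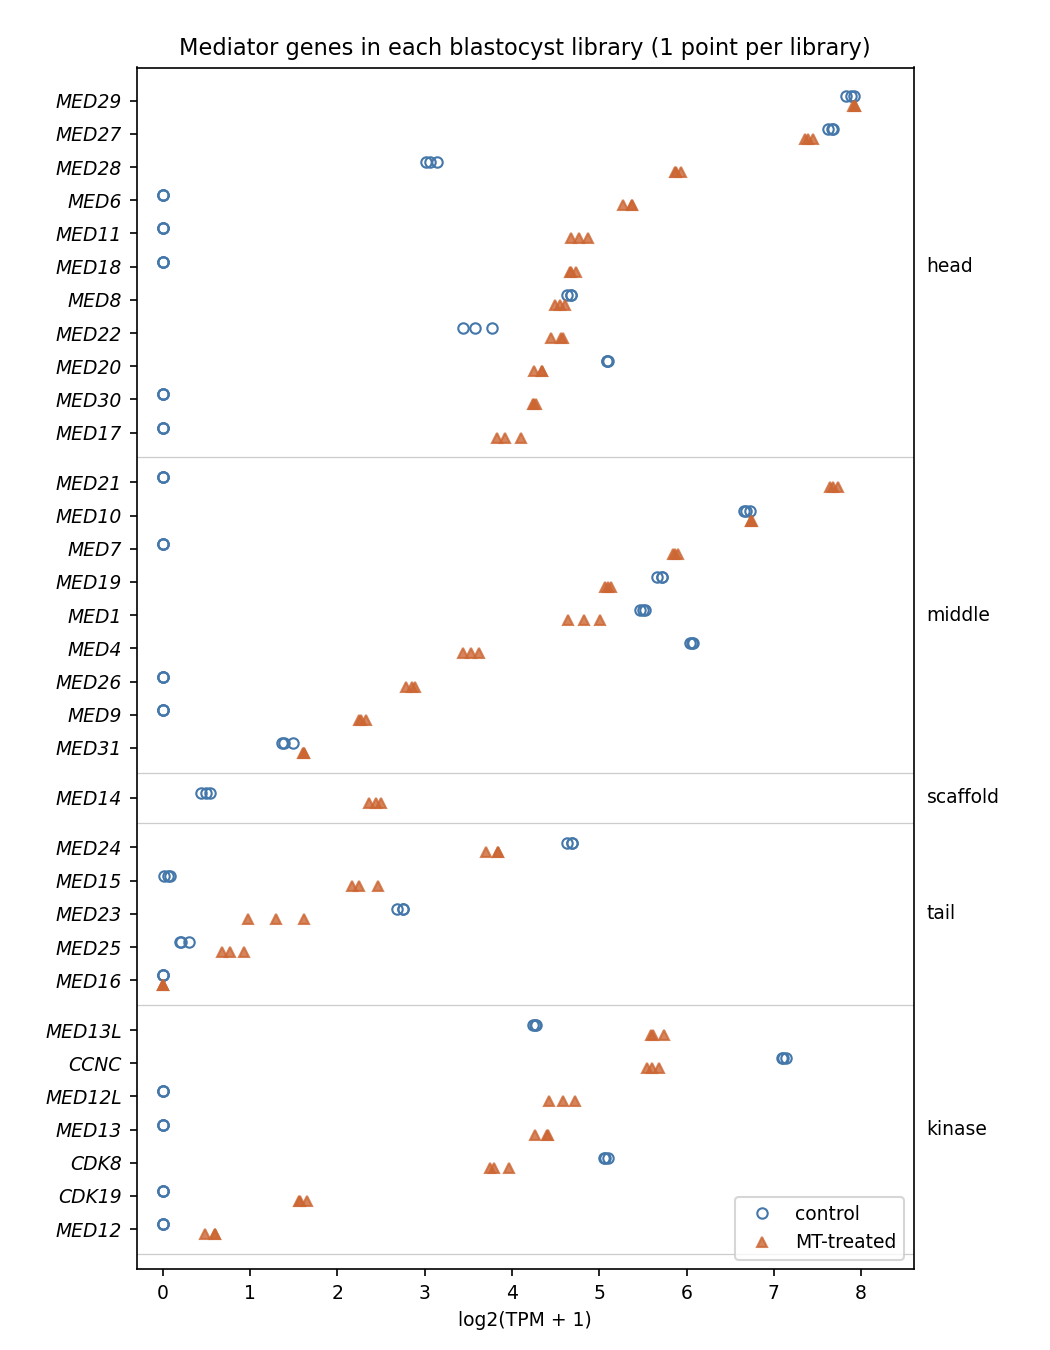
Level of each of the 33 Mediator genes in each library, as log2(TPM + 1), in 5 modules and with 1 point per library (open circles control, triangles MT-treated). The 13 genes with circles at 0 and triangles to the right are those listed at 0 in every control library. MED29 and MED10 have nearly the same level in both groups, and MED4, CCNC and CDK8 lie to the left in MT-treated libraries.

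The head module is the part of the core that grips RNA polymerase II. Of its 11 genes, counting MED27 to MED30, whose place between head and tail is given differently in different sources, 7 rose and 3 fell in the MT-treated group (63.6% and 27.3%, against 61.6% and 34.1% of all tested genes). After median centring 10 were higher and 1 was lower (all genes 70.4% and 25.4%), and after quantile normalization 8 and 1 (46.4% and 44.4%). In control libraries 5 of the 11 genes were listed at 0 (45.5%, against 33.8% of all tested genes). Once tested, these could only be higher in TPM as deposited. Of the other 6 head genes 2 rose and 3 fell, against 36.8% and 54.9% of all genes that reached 1 TPM in both groups. MED17, the central subunit of the head around which the others fold, had 13.2, 14.2 and 16.3 TPM in MT-treated libraries. MED6, which lies at the border of head and middle, had 37.7, 40.6 and 40.6 TPM there. MED30, a subunit found in animals but not in yeast, had 18.0, 17.9 and 18.4 TPM. For all these genes every control library was at 0.

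MED18 and MED20 form a movable jaw of the head. MED18 was listed at 0 in all of the control libraries, with 24.5, 25.7 and 24.3 TPM in MT-treated libraries. MED20 had 33.3, 33.1 and 33.1 TPM in the control and 19.3, 18.0 and 19.4 TPM in MT-treated libraries, a fall without overlap (log2 fold change -0.78, SE 0.03, limma adjusted p = 1.16e-06). MED11 and MED22 form another pair. MED11 was at 0 in control libraries, with 24.7, 26.4 and 28.2 TPM in MT-treated libraries. MED22 rose from 10.98, 12.65 and 9.85 TPM to 20.7, 23.0 and 22.6 TPM, a log2 fold change of 0.93 (SE 0.09, limma adjusted p = 7.93e-05). In MT-treated libraries the members of the 2 pairs lay within 18.0 and 28.2 TPM.

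The remaining head genes included the most abundant subunits. MED29 had 242, 227 and 235 TPM in control and 242, 238 and 244 TPM in MT-treated libraries, and the groups overlapped (log2 fold change 0.04, SE 0.03, limma adjusted p = 0.178). MED29 was called higher under the other scalings, with 0.52 after centring, 0.22 after quantile normalization and 0.08 with libraries rescaled to an equal total. It was higher than 93.3% of the genes above 0 in control blastocysts and 96.3% in MT-treated blastocysts. MED27 fell from 202, 196 and 203 TPM to 167, 163 and 174 TPM, a log2 fold change of -0.25 (SE 0.03, limma adjusted p = 0.000168), which was 0.23 after median centring and -0.02 without a call after quantile normalization (limma adjusted p = 0.522). MED28, which also binds proteins of the actin cytoskeleton, rose from 7.83, 7.09 and 7.37 TPM to 60.03, 57.9 and 57.3 TPM. The MT-treated mean was 7.86 times the control mean, and the log2 fold change was 2.82 (SE 0.04, limma adjusted p = 5.97e-09).
MED8 had 23.7, 24.6 and 24.6 TPM in control and 23.3, 21.6 and 22.4 TPM in MT-treated libraries, a log2 fold change of -0.11 (SE 0.04, limma adjusted p = 0.0254). That call was lost without control replicate 2 (limma adjusted p = 0.0754), control replicate 3 (0.0759), MT-treated replicate 2 (0.0552) or MT-treated replicate 3 (0.0593), and with the replicate number as a block (0.0647). It was lost as well with libraries rescaled to an equal total (limma adjusted p = 0.0881) and after quantile normalization (0.0559). The log2 fold change of MED8 was 0.37 after median centring.

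The middle module links head and tail and carries the hinge of the complex. Of its 9 genes 5 rose and 3 fell in the MT-treated group (55.6% and 33.3%, against 61.6% and 34.1% of all tested genes). After median centring these were 6 and 2 (all genes 70.4% and 25.4%), and after quantile normalization 4 and 4 (46.4% and 44.4%). In control libraries 4 of the 9 were listed at 0 (44.4%, against 33.8% of all tested genes). Once tested, these could only be higher in TPM as deposited. Of the other 5 middle genes 1 rose and 3 fell, against 36.8% and 54.9% of all genes that reached 1 TPM in both groups. MED7 and MED21 wind around each other in that hinge, and both were listed at 0 in every control library. MED21 had 213, 204 and 199.6 TPM in MT-treated libraries and was the second most abundant Mediator gene there. MED7 had 56.6, 58.9 and 57.6 TPM. MED9 had 3.81, 4.02 and 3.76 TPM and MED26, which recruits elongation factors, 6.23, 6.40 and 5.91 TPM, again with every control library at 0. After quantile normalization MED9 was not called (limma adjusted p = 0.131). 
MED4, which lies beside MED9, had 66.3, 64.6 and 65.9 TPM in control and 10.6, 11.3 and 9.87 TPM in MT-treated libraries. Its mean was 6.19 times higher in control, the largest fall of the complex (log2 fold change -2.52, SE 0.05, limma adjusted p = 2.16e-08). In control libraries MED4 was present with MED9 listed at 0.

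MED1, the subunit through which nuclear receptors reach Mediator, had 44.3, 45.0 and 43.1 TPM in control and 31.3, 23.98 and 27.4 TPM in MT-treated libraries. The log2 fold change of -0.67 (SE 0.09, limma adjusted p = 0.00047) moved to -0.19 after median centring and lost its call (limma adjusted p = 0.0915). MED19, another middle subunit, fell from 51.7, 49.7 and 51.8 TPM to 32.5, 33.2 and 34.2 TPM (log2 fold change -0.60, SE 0.03, limma adjusted p = 2.31e-06). The log2 fold change of MED19 was -0.12 after median centring and -0.32 after quantile normalization, and it was called lower under both. MED10 had 105, 101 and 99.97 TPM in control and 106, 106 and 107 TPM in MT-treated libraries. These groups did not overlap, but the log2 fold change was 0.06 (SE 0.02, limma adjusted p = 0.052), and it was called without control replicate 1 (limma adjusted p = 0.0135) and with a filter at 5 TPM (0.0499). MED10 was also called higher after centring (0.54), quantile normalization (0.34) and rescaling to an equal total (0.10). MED31 was among the least abundant subunits in both groups, with 1.63, 1.81 and 1.58 TPM in control and 2.07, 2.05 and 2.07 TPM in MT-treated libraries. Its log2 fold change of 0.20 (limma adjusted p = 0.00365) turned to -1.79 after quantile normalization.

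MED14, the backbone of the complex, had 0.36, 0.41 and 0.46 TPM in control and 4.16, 4.67 and 4.43 TPM in MT-treated libraries. The groups did not overlap, and the mean was 10.8 times higher in MT-treated blastocysts. It reached 1 TPM in MT-treated libraries only and so had to differ once tested, and no p-value is given. Its log2 fold change of 1.94 was 3.15 with a pseudocount of 0.1 and turned to -0.83 after quantile normalization. MED14 was higher than 26.6% of the genes above 0 in control and 38.01% in MT-treated blastocysts.

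Without MED27 to MED30, the 5 genes of the tail module summed to 29.8 to 30.7 TPM in control and 18.8 to 19.6 TPM in MT-treated libraries, and MED24 made up most of both sums. With MED27 to MED30 the tail summed to 460.5 to 482 TPM in control and 497 to 512 TPM in MT-treated libraries, so the direction of its sum depended on where these genes are placed. MED24, which nuclear receptors and other activators use together with MED1, fell from 24.9, 24.8 and 23.8 TPM to 13.4, 12.1 and 13.3 TPM (log2 fold change -0.87, SE 0.05, limma adjusted p = 3.50e-06). MED23, the contact of the growth factor responsive protein ELK1, fell from 5.45, 5.72 and 5.73 TPM to 1.45, 2.08 and 0.97 TPM (log2 fold change -1.43, SE 0.16, limma adjusted p = 0.000151). After median centring the log2 fold changes were -0.40 for MED24 and -0.95 for MED23, and after quantile normalization -1.97 and -2.73. The spread among the MT-treated libraries was the widest of the complex for MED23 relative to its level.
MED15, the contact of the sterol regulators SREBF1 and SREBF2 and of SMAD2 and SMAD3, had 0.06, 0.01 and 0.04 TPM in control and 3.50, 4.51 and 3.76 TPM in MT-treated libraries. MED15 too reached 1 TPM in MT-treated libraries only, so no p-value is given. Its log2 fold change of 2.24 depended on the pseudocount, with 4.89 at a pseudocount of 0.1, and turned to -0.60 after quantile normalization. MED25 had 0.16, 0.15 and 0.23 TPM in control and 0.60, 0.90 and 0.70 TPM in MT-treated libraries, below the level required for testing. Of the 3 tested tail genes 1, MED15, was higher and 2 were lower, against 61.6% and 34.1% of all tested genes. Centring gave the same counts (all genes 70.4% and 25.4%), and after quantile normalization none was higher and 3 were lower (46.4% and 44.4%). With MED27 to MED30 counted in the tail, 3 of 7 tested tail genes were higher and 3 lower (42.9% each), and 5 of 7 head genes were higher and 2 lower (71.4% and 28.6%).

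**Figure D2:**
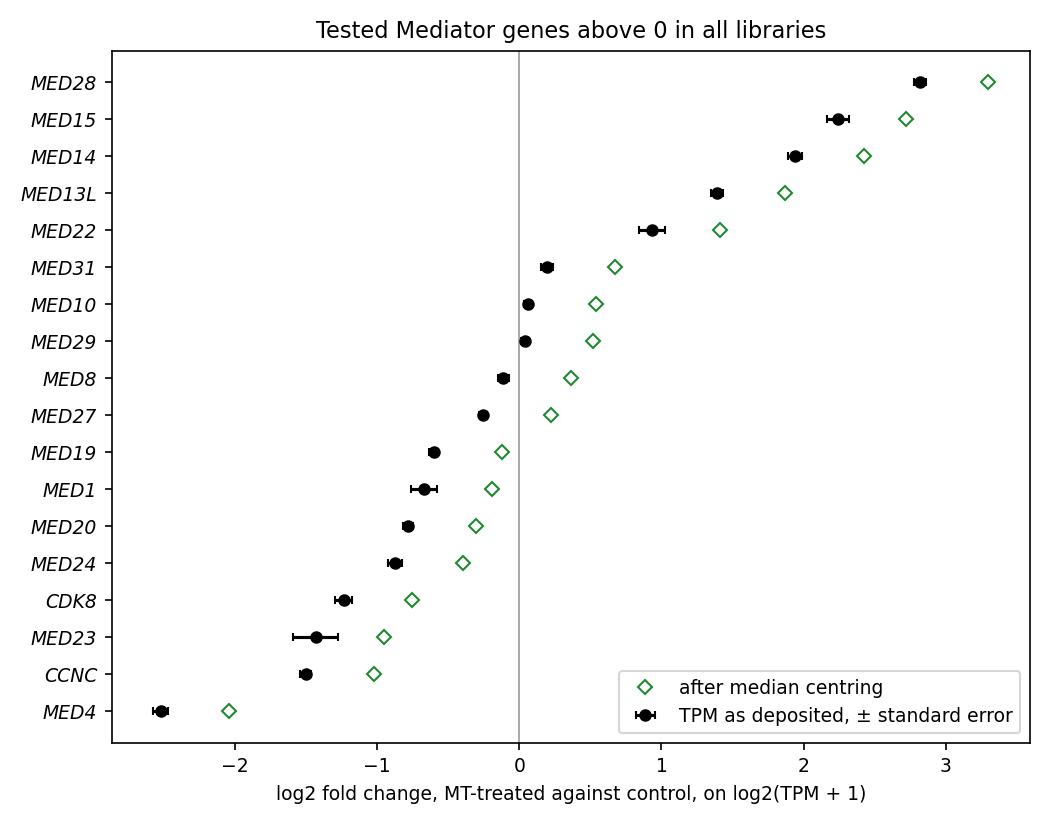
Log2 fold change between MT-treated and control blastocysts, on the log2(TPM + 1) scale, for the 18 tested Mediator genes above 0 in all 6 libraries. Filled circles with bars give the value and standard error for TPM as deposited, and open diamonds the value after median centring, which lies 0.48 higher for each gene. MED8 and MED27 change sign between the 2 scalings.

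In the kinase module 4 of 6 tested genes were higher with MT and 2 lower (66.7% and 33.3%, against 61.6% and 34.1% of all tested genes). Centring left these counts as they were (all genes 70.4% and 25.4%), and quantile normalization gave 3 and 3 (46.4% and 44.4%). Of the 6 tested genes, 3 were at 0 in control (50%, against 33.8% of all tested genes). Once tested, these could only be higher in TPM as deposited. Of the other 3 kinase genes 1 rose and 2 fell, against 36.8% and 54.9% of all genes that reached 1 TPM in both groups. CDK8 and CCNC were the 2 that fell. CDK8, the kinase, had 32.4, 33.3 and 32.2 TPM in control and 12.4, 14.6 and 12.9 TPM in MT-treated libraries (log2 fold change -1.24, SE 0.06, limma adjusted p = 1.99e-06). CCNC, the cyclin that activates it, had 137, 140 and 136 TPM in control and 45.6, 50.4 and 47.7 TPM in MT-treated libraries (log2 fold change -1.50, SE 0.04, limma adjusted p = 7.75e-08). The means were 2.45 and 2.87 times higher in control, and both falls were also called after either other scaling, centring or quantile. MED13L, which ties the module to the core, rose from 18.0, 18.4 and 18.2 TPM to 47.5, 52.5 and 48.2 TPM (log2 fold change 1.39, SE 0.04, limma adjusted p = 1.91e-07). MED13, its paralogue, was listed at 0 in all of the control libraries, with 20.3, 18.2 and 20.1 TPM in MT-treated libraries.

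Vertebrates carry 2 versions of several kinase module subunits, of which a single module holds 1. CDK19 was listed at 0 in all of the control libraries, with 1.97, 2.14 and 1.95 TPM in MT-treated libraries. CDK8 thus made up all of the CDK8 and CDK19 signal in control and 86.3%, 87.2% and 86.9% of it in MT-treated libraries. The direction for CDK19 turned after quantile normalization, to a log2 value of -0.32. MED13 made up 29.99%, 25.7% and 29.4% of the MED13 and MED13L signal in MT-treated libraries, and none was listed in control. At an MT-treated mean of 5 to 20 TPM, where MED13 lay, 47.2% of all tested genes were at 0 in control. MED12, which activates CDK8 and is the more widely studied of its pair, had 0.40, 0.52 and 0.52 TPM in MT-treated libraries, and MED12L had 23.0, 25.4 and 20.5 TPM. MED12L made up 97.5% to 98.3% of that pair, and both were listed at 0 in every control library. Such shares within a library do not change when all of its values are multiplied by the same factor. How reads that match both paralogues were assigned is not given in the sources used here.

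**Figure D3:**
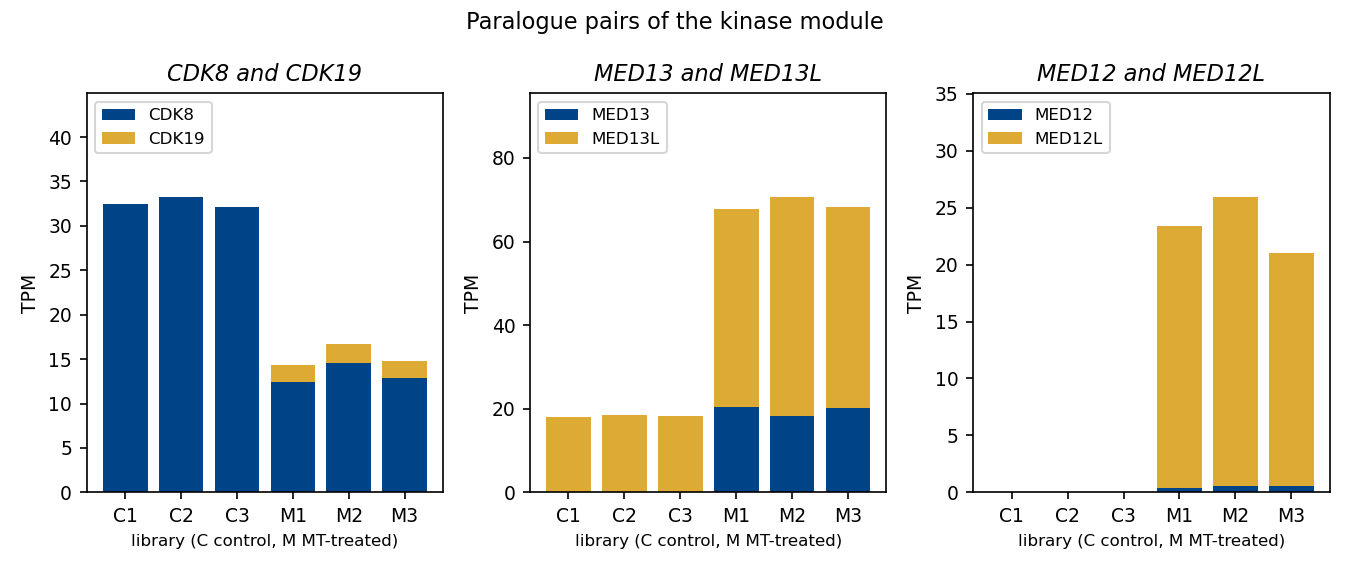
TPM of the 3 paralogue pairs of the kinase module in each library (C1 to C3 control, M1 to M3 MT-treated), with both members stacked. CDK8 falls from 32.2 to 33.3 TPM in control to 12.4 to 14.6 TPM in MT-treated libraries, while MED13L rises, and MED13, MED12L, MED12 and CDK19 have bars in MT-treated libraries only.

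The summed TPM of all Mediator genes was 1006, 985 and 992 in control libraries and 1286, 1284 and 1289 in MT-treated libraries. The 13 genes listed at 0 in control made up 34.3% of the MT-treated sum, and MED21 alone made up 16.0%. The other 19 detected genes summed to 985 to 1006 TPM in control and 841 to 851 TPM in MT-treated libraries. By module, the head summed to 500.1 to 519 TPM in control and 647 to 667 TPM in MT-treated libraries and the middle to 262 to 269 and 447 to 462 TPM. Without MED27 to MED30 the head summed to 67.6 to 70.3 TPM in control and 163 to 174 TPM in MT-treated libraries. The kinase module went from 186 to 191 TPM down to 151 to 164 TPM, and its share of the total from 18.9% to 12.1%. No ranges of the groups overlapped for any of these sums in TPM as deposited. The MT-treated sums were also rescaled by 0.48, the log2 difference between the library medians used for centring. The ratio of MT-treated to control then turned from 0.827 to 1.15 for the kinase module. For the 19 genes it turned from 0.85 to 1.18. The direction of both thus changed under this scaling. A smaller shift, such as the median log2 fold change of -0.19 of single genes, was not tried.

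**Figure D4:**
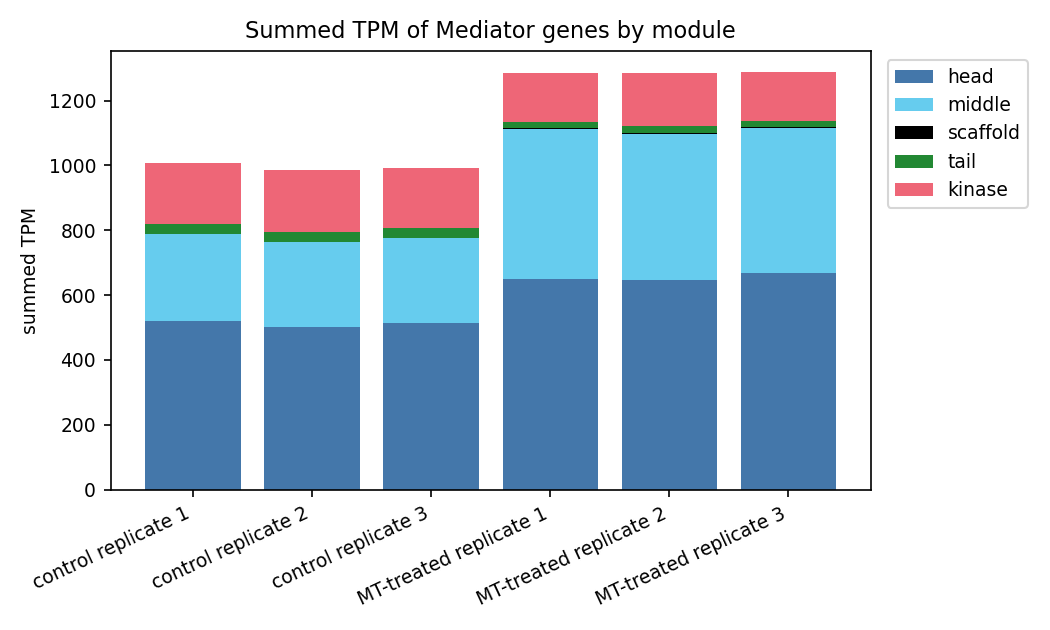
Summed TPM of the Mediator genes in each library, stacked by module. The MT-treated libraries lie at 1284 to 1289 TPM and the control libraries at 985 to 1006 TPM, with most of the difference in the head and middle modules. MED14, the scaffold, is too low to be seen in control.

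The order of the genes by level was partly shared. MED29 was highest in both groups, and MED27 and MED10 were among the 4 highest in both. CCNC followed MED29 and MED27 in control and had 7 genes above it in MT-treated blastocysts, where its range overlapped that of MED13L. In control the neighbours MED20 and CDK8, and MED24 and MED8, overlapped, and all other neighbours lay apart. In MT-treated blastocysts, from MED1 at 27.5 TPM down to MED22 at 22.1 TPM, each of 6 genes overlapped with its neighbour in the order. Among genes with a mean of at least 5 TPM, the median coefficient of variation between libraries was 2.16% over 15 Mediator genes in control and 4.08% over 24 in MT-treated blastocysts. For all tested genes of that level it was 2.73% and 4.48%.

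Mediator genes listed at 0 in control had a wide range of levels in MT-treated blastocysts. Of all 1249 tested genes with an MT-treated mean of 100 TPM or more, 14 were at 0 in every control library, and MED21 was 1 of them. Between 20 and 100 TPM, 5 of 12 Mediator genes and 860 of 3609 tested genes (23.8%) were at 0 in control. Between 5 and 20 TPM these were 4 of 8 and 2088 of 4422 (47.2%), and between 1 and 5 TPM 2 of 6 and 1075 of 1971 (54.5%). Over all levels 12 of the 30 tested Mediator genes were at 0 in every control library, or 40%, and 33.8% of all tested genes.

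**Figure D5:**
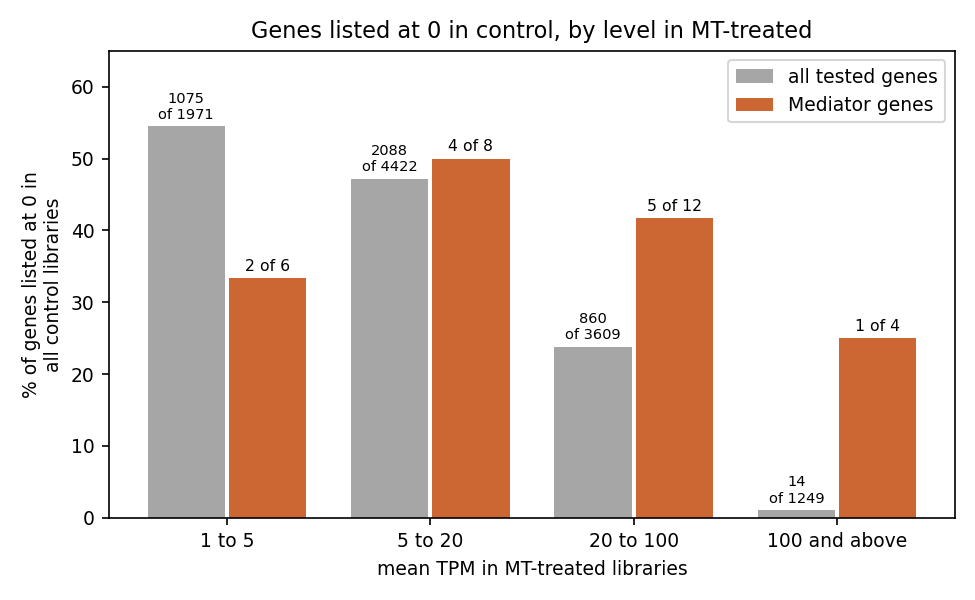
Share of tested genes listed at 0 in all control libraries, by mean TPM in MT-treated libraries, for all tested genes (grey) and Mediator genes (orange), with the counts above the bars. The share falls from 54.5% to 1.12% over all genes, while the Mediator bars rest on 4 to 12 genes each.

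Genes that work with Mediator were set beside it. Of those named here, TAF12 reached 1 TPM in control only and NELFCD, NELFA, NIPBL and STAG1 in MT-treated libraries only, as did the tested genes at 0 in control, so these had to differ once tested. For the general transcription factors that form the pre-initiation complex with RNA polymerase II, 25 of 32 listed genes were tested, and 7 rose and 18 fell in the MT-treated group (28% and 72%, against 61.6% and 34.1% of all tested genes). After median centring these were 11 and 14 (all genes 70.4% and 25.4%), and after quantile normalization 5 and 18 (46.4% and 44.4%). Of the 23 above 0 in all libraries 5 rose and 18 fell, against 2809 and 3620 of all 6925 such genes. Only 2 of the 25 were at 0 in every control library (8%, against 33.8% of all tested genes). TAF12 fell from 60.9, 57.9 and 61.3 TPM to 0.61, 0.55 and 0.43 TPM, and GTF2A1, a subunit of TFIIA, from 48.3, 47.8 and 49.4 TPM to 2.06, 1.78 and 1.91 TPM. TAF3, which reads a histone mark of active promoters, fell from 17.5, 17.2 and 17.5 TPM to 1.80, 1.69 and 1.65 TPM. TAF13 rose from 29.6, 30.7 and 30.6 TPM to 83.3, 85.3 and 89.5 TPM. Both subunits of TFIIF were higher, GTF2F2 with a log2 fold change of 2.33 and GTF2F1 with 2.21, which became 0.39 and -0.17 after quantile normalization. GTF2E1, a subunit of TFIIE, was at 0 in all of the control libraries, with 9.32, 9.61 and 9.03 TPM in MT-treated libraries. TAF4B, at 0 in control as well, had 2.47, 2.50 and 2.21 TPM and TAF4 at most 0.06 TPM. The log2 fold change of TAF4B turned to -0.23 after quantile normalization.

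Of 20 tested genes of pausing and pause release, which MED26 links to Mediator, 12 were higher and 7 lower (60% and 35%, near the 61.6% and 34.1% of all tested genes). After median centring these were 14 and 5 (all genes 70.4% and 25.4%), and after quantile normalization 10 and 8 (46.4% and 44.4%). Of the 14 above 0 in all libraries 6 were higher and 7 lower, against 2809 and 3620 of all 6925 such genes. The NELF complex holds the paused polymerase, and its subunit NELFE rose from 5.31, 5.41 and 4.74 TPM to 52.8, 54.8 and 54.2 TPM. NELFCD had 0.03, 0.11 and 0.17 TPM in control and 14.97, 15.7 and 16.1 TPM in MT-treated libraries. NELFA had a log2 fold change of 1.67, which turned to -0.94 after quantile normalization. NELFB, another subunit of the complex, fell from 20.9, 18.9 and 19.1 TPM to 16.7, 13.3 and 15.1 TPM (log2 fold change -0.37, SE 0.09, limma adjusted p = 0.00608), a call that was lost after median centring (0.11, limma adjusted p = 0.248). ELL2, an elongation factor, fell from 64.6, 62.5 and 65.9 TPM to 2.07, 2.36 and 2.15 TPM. HEXIM1, which inhibits the elongation kinase, and MLLT1 fell as well, with log2 fold changes of -2.49 and -1.96. MEPCE, CCNT1 and EAF1 were at 0 in every control library, with MT-treated means of 17.1, 12.0 and 7.54 TPM.

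Of 18 tested enhancer cofactors, 11 were higher and 7 lower (61.1% and 38.9%, against 61.6% and 34.1% of all tested genes). After median centring these were 12 and 5 (all genes 70.4% and 25.4%), and after quantile normalization 8 and 9 (46.4% and 44.4%). Of the 14 above 0 in all libraries 7 were higher and 7 lower, against 2809 and 3620 of all 6925 such genes. NIPBL, which loads cohesin and meets Mediator at enhancers, had 0.04, 0.07 and 0.09 TPM in control and 37.2, 41.2 and 38.2 TPM in MT-treated libraries. STAG1, a cohesin subunit, had 0.14, 0.07 and 0.12 TPM and 27.3, 25.8 and 27.8 TPM. The acetyltransferase EP300 fell from 34.2, 35.2 and 35.1 TPM to 7.63, 8.14 and 8.09 TPM, while its paralogue CREBBP was at 0 in all of the control libraries, with 17.2, 25.2 and 26.2 TPM in MT-treated libraries. BRD2 rose and its paralogue BRD3 fell, with log2 fold changes of 2.88 and -2.52. NCOA2, a nuclear receptor coactivator, fell from 148, 152 and 140.4 TPM to 14.96, 15.03 and 13.9 TPM. KMT2C and PPARGC1A were at 0 in every control library, with MT-treated means of 12.98 and 1.55 TPM, and PPARGC1A turned to a log2 value of -0.44 after quantile normalization.

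Of 17 tested transcription factors known to contact a Mediator subunit, 10 were higher and 7 lower (58.8% and 41.2%, against 61.6% and 34.1% of all tested genes). Both counts stayed after median centring (all genes 70.4% and 25.4%), and after quantile normalization they were 7 and 9 (46.4% and 44.4%). Of the 12 above 0 in all libraries 5 were higher and 7 lower, against 2809 and 3620 of all 6925 such genes. ELK1, which binds MED23, fell from 17.1, 17.8 and 17.8 TPM to 1.02, 0.94 and 1.12 TPM. SREBF2, which binds MED15, rose from 3.00, 3.50 and 3.63 TPM to 26.3, 28.7 and 20.5 TPM. SREBF1, which binds MED15 as well, fell from 18.1, 17.2 and 19.1 TPM to 4.36, 4.2 and 5.15 TPM (log2 fold change -1.78, SE 0.08, limma adjusted p = 9.54e-07). The nuclear receptors THRB, RXRA and ESR1, which bind MED1, were at 0 in all of the control libraries, with MT-treated means of 30.8, 16.9 and 14.3 TPM. NR3C1, another partner of MED1, rose from 3.49, 4.36 and 3.05 TPM to 11.9, 10.8 and 11.8 TPM, and MYC from 1.93, 1.85 and 2.03 TPM to 10.8, 7.88 and 10.7 TPM, though both turned to log2 fold changes of -0.87 and -0.88 after quantile normalization. ATF6, a partner of MED25, fell with a log2 fold change of -2.33, and GLI3, a partner of MED12, with -2.45. The expression of a factor and of its Mediator subunit was measured on the same pools, and no relation between them was tested.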

How the data were processed

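RNA of bovine blastocyst pools was measured in 3 MT-treated and 3 control libraries. The sample labels name a TruSeq kit and the paper names Smart-seq2. Per the labels and the paper, the authors used fastp 0.20.1 and FastQC 0.11.9 for quality control, aligned reads with STAR 2.7.9a, counted genes with featureCounts of Subread 1.6.3 and used DESeq2. The paper names the build ARS-UCD1.3 and the labels ARS-UCD1.2. The authors deposited TPM, and how TPM were made from the counts was not given in the sources used here. The table holds no counts or depth, and depth from other sources was not analysed here, so no counting interval is given.

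The tests here used limma 3.58.1 (lmFit, then eBayes with a mean trend; R 4.3.3) on log2(TPM + 1). Only the 11953 genes reaching 1 TPM in 3 or more libraries entered, and the Benjamini-Hochberg adjustment ran over all of them. No count test was possible on TPM. The code of the fit was also run on simulated data, and no result of that run is given here. Figures used Python 3.11.15 and matplotlib 3.10.9. The members, modules, other gene lists and marker lists were chosen with earlier results of these data known, and the lists were written from general knowledge. Named genes were all members, with full statistics for at least the 5 largest rises and 5 largest falls among members above 0 in all libraries (no error or p for MED14 and MED15, whose test the filter decided). From each other list, up to 3 rises and 3 falls among genes above 0 in all libraries, and up to 3 genes at 0 in all libraries of a group, were named. This left out genes at 0 in only some control libraries, such as SUPT5H (mean 0.003 TPM in control and 26.1 TPM with MT) and NCOA3 (0.003 and 24.0 TPM). Statistics of other members above 0 in all libraries, and NELFB, SREBF1 and the marker genes, were added after their values were seen. No sequence is shown.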

Additional observations from a re-analysis of the deposited data

How the results depend on the processing

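The pseudocount was set to 0.1, the filter was dropped or raised to 5 TPM, and eBayes was run without its trend. Libraries were also quantile normalized, centred or rescaled to an equal total. Across these settings 14 to 22 Mediator genes were called higher and 7 to 12 lower, where the main fit had 18 and 10. By at least 2-fold these were 11 to 17 and 2 to 6, where the main fit had 16 and 4. The 2 were left by median centring. Of the 18, 14 reached 1 TPM in MT-treated libraries only, so their call in TPM as deposited was set by the filter. With each library left out in turn, the counts were 18 to 19 higher and 9 to 10 lower, 16 to 17 and 4 to 4 by at least 2-fold. Median centring, which moves every gene by the same amount, turned the log2 fold changes of MED27 to 0.23 and of MED8 to 0.37. Quantile normalization turned CDK19 to -0.32, MED14 to -0.83, MED15 to -0.60 and MED31 to -1.79, and the cause was not tested. It also ended the calls of MED9 (0.03), MED27 (-0.02) and MED8 (-0.15) and gave calls to MED10 (0.34) and MED29 (0.22). Rescaling the MT-treated sums by the difference between library medians was chosen after seeing the data. It turned the ratio of summed TPM to 1.15 for the kinase module and 1.18 for the 19 genes above 0 in both groups. Counting MED27 to MED30 in the tail, for sums also chosen after seeing the data, turned the ratio for the tail to 1.07. It moved the ratio for the head from 1.28 to 2.46. Without a filter, 32 genes were tested and 20 were higher. With a minimum of 5 TPM, 25 were tested and 14 were higher.

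As the methods describe, the oocytes of each run were pooled and split at random, and all treatments of a run were done together. Control and MT-treated pools may thus share runs, but replicate numbers are not stated to mark a shared production run. The main fit used no pairing. Same-numbered libraries had correlations of their deviations from the group means of -0.0115, -0.000679 and 0.0588, and 2 of 6 libraries correlated best with their own number. With the replicate block, 18 genes were higher and 9 lower, 16 and 4 of them by at least 2-fold. P-values measure the spread between these pools. As TPM holds no counts, low levels such as those of MED12, MED15 and MED25 have no known counting error.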
